A study of Mus musculus with 17 samples.

Results

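The 10 genes described here encode the growth factors Igf1 and Igf2, the binding protein Igfbp5, the receptors Igf1r and Insr, the receptor substrates Irs1 and Irs2, and the sestrins Sesn1, Sesn2 and Sesn3. Their rows were found by gene symbol. Each had 1 row among the 36172 in the deposited table, and all 10 were among the 13965 genes with enough reads to be tested. Bulk RNA of the extensor digitorum longus (EDL), a fast-twitch muscle of the lower hind limb, was sequenced in 17 mice of 22 or 23 months. Of these, 7 had been treated with a vector carrying Hand2, a transcription factor of sympathetic neurons, and 10 with an empty vector. The series concerns the preservation of sympathetic neurons and its relation to muscle wasting in old age. The Hand2 animals were 3 males, of which 1 was 22 and 2 were 23 months old, and 4 females, of which 3 were 22 and 1 was 23 months old. The empty-vector animals were 5 males, of which 1 was 22 and 4 were 23 months old, and 5 females, of which 2 were 22 and 3 were 23 months old. The kind of vector, its promoter, the route and time of its delivery, and the strain of the mice are not stated by the labels. All animals were old, so no comparison with young muscle was possible.

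Insulin and the insulin-like growth factors bind receptor tyrosine kinases that are built alike. The activated receptor phosphorylates insulin receptor substrates, which recruit phosphoinositide 3-kinase and so activate AKT. AKT releases the brake on mTOR complex 1, which drives protein synthesis, and keeps FOXO transcription factors out of the nucleus, where they switch on genes of muscle protein breakdown. Sestrins are induced by stress and low nutrients; Sesn1 and Sesn2 bind leucine and restrain mTOR complex 1 through the GATOR complexes. In skeletal muscle this network balances growth against wasting.

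Among the 10 genes, Sesn1 had the clearest difference between groups, and it lay between the sexes. Its RNA in males was 0.486 times that in females, and no male reached the level of any female. Igf2 was also lower in males, by a smaller amount. None of the 10 genes passed the test between Hand2 and empty-vector animals. Irs2 was uneven in empty-vector females, while Hand2 animals and empty-vector males lay between 10.7 and 15 CPM.

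The libraries held 19181208 to 30942818 estimated counts. Levels are given as CPM, counts scaled to a common library total and by the trimmed mean of M values. The floor was taken as 3 counts, worth 0.097 to 0.156 CPM by the unscaled library totals alone. Hand2 RNA itself lay at 1.02 to 26.3 CPM in Hand2 muscles and at 0.0711 to 0.94 CPM in empty-vector muscles, with no overlap. Its median in Hand2 muscles was 2.04 CPM, and its mean was 1.94 CPM in Hand2 females and 12.6 CPM in Hand2 males. The 8 markers of fast fibres were detected in every animal and summed to 97137 to 117878 CPM, so the libraries had the profile of a fast muscle. The 7 markers of slow fibres, also detected in every animal, summed to 135 to 326 CPM in males and to 282 to 1456 CPM in females. In bulk muscle, fewer cells of a type and less RNA per cell cannot be told apart.

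Per kilobase of merged exons, Igfbp5 had the highest mean level, at 133 CPM per kb over the 17 animals. Sesn1 at 15.9, Insr at 10.5, Irs1 at 8.55 and Igf2 at 5.98 CPM per kb came next. Igf1r at 2.8, Irs2 at 2.77, Sesn2 at 1.54 and Igf1 at 1.1 CPM per kb followed, and Sesn3 was lowest at 0.17 CPM per kb. The range over animals of Igfbp5 lay above that of Sesn1, the range of Igf2 above that of Igf1r, and the range of Igf1 above that of Sesn3. All other neighbours in this order overlapped. The genes also differed in how much animals varied. The coefficient of variation of the CPM over all 17 animals was 8.49% for Insr, 14.4% for Igf1r, 18.7% for Igf2 and 18.9% for Sesn2. It was 28% for Igfbp5, 31.2% for Igf1, 40.7% for Sesn1, 43.7% for Irs1, 60% for Sesn3 and 74.2% for Irs2. Single animals carried much of the last pair: without empty-vector replicate 2 the value of Sesn3 was 26.4%, and without empty-vector replicate 3 that of Irs2 was 40%.

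**Figure D1:**
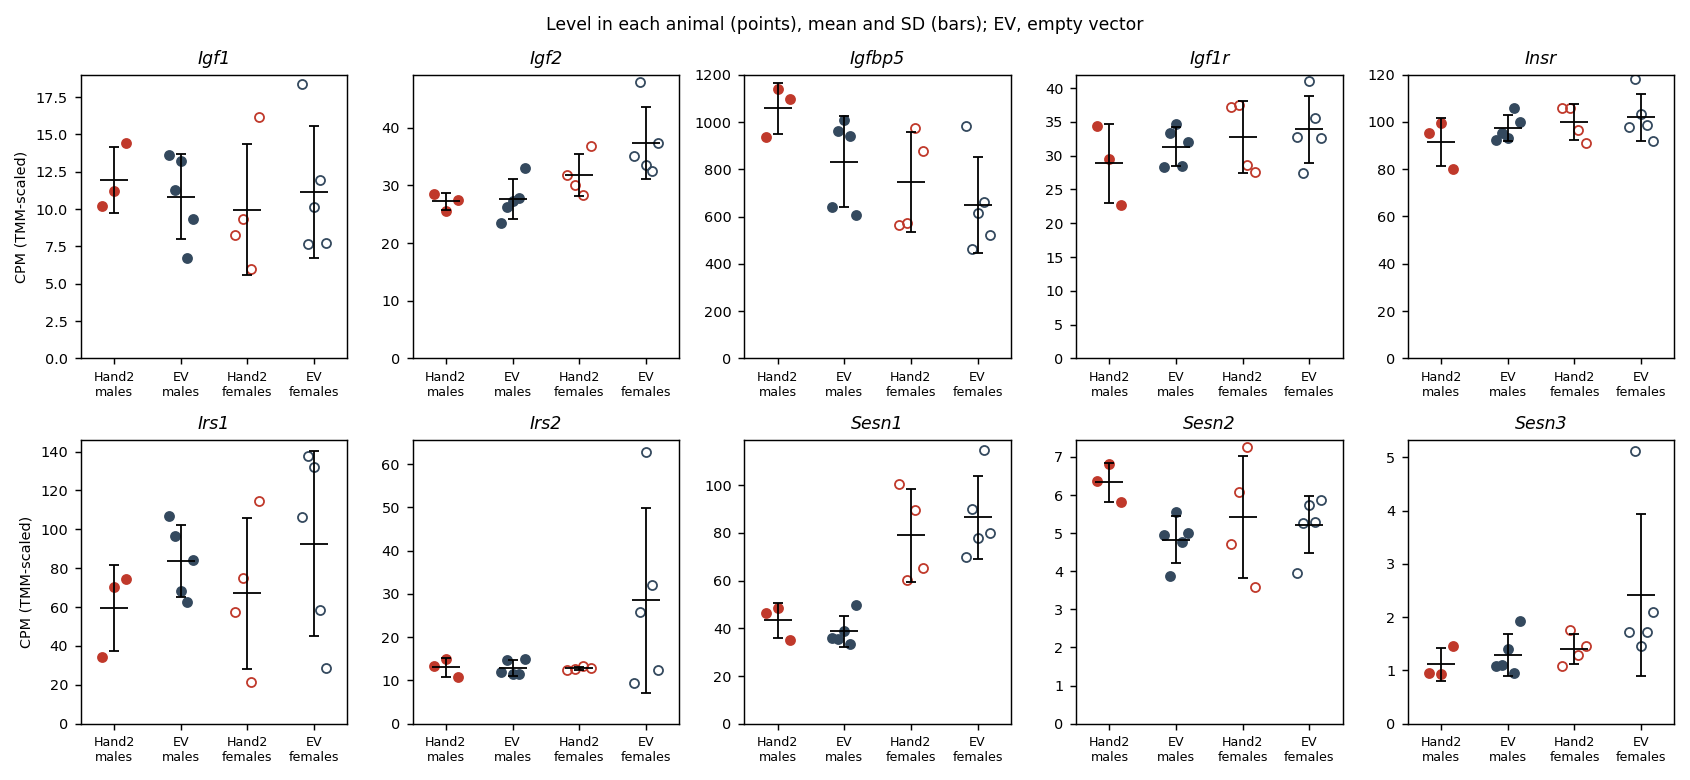
Level of each of the 10 genes in each animal (points, TMM-scaled CPM on linear axes from 0), with the mean and SD of each group as bars; Hand2 is red, empty vector (EV) blue, males filled and females open. The 8 males sit at 33.6 to 49.8 CPM of Sesn1, below all 9 females at 60.1 to 115 CPM, and Irs2 spreads from 9.52 to 62.9 CPM among empty-vector females.

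Sesn1 (gene 140742, mm10 chr10:41810574-41908436, plus strand) encodes a sestrin that is abundant in skeletal muscle. The reference gives it a pair of start sites 76865 bases apart. Because the counts are summed over the gene, they do not separate transcripts from these sites. The 250 bases upstream of each are shown, since Sesn1 carries the main difference and is a known target of FOXO factors. They come from RefSeq (GRCm38.p6), written 5′ to 3′ in the direction of transcription, and capitals mark the forkhead core TGTTT and the cyclic AMP response half-site TGACG, searched on both strands.
Sesn1 start site 1, chr10:41810324-41810573, plus strand: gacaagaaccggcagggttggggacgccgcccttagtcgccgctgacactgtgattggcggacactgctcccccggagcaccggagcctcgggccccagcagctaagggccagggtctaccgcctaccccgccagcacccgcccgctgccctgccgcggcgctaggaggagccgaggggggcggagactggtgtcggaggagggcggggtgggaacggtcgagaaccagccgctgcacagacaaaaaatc
Sesn1 start site 2, chr10:41887189-41887438, plus strand: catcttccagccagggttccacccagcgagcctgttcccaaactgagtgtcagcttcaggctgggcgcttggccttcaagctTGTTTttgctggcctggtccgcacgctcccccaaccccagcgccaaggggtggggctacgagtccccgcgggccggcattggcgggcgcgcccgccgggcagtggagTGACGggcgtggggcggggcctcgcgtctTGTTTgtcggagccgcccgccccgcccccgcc
The window of start site 1 held neither motif, with 70% G or C and 23 CpG dinucleotides. The window of start site 2 held 2 forkhead cores, at bases 168 to 164 and 32 to 28 before the start, and 1 half-site at bases 61 to 57, none overlapping another, with 71.2% G or C and 24 CpG dinucleotides. Neither window held the longer FOXO site TGTTTAC or the full response element TGACGTCA. Of all 32851 promoter windows of this length in the table, 46.4% held TGTTT, 17.8% TGACG, 3.17% TGTTTAC and 1.55% TGACGTCA, and the median G or C content was 52.4%. These matches describe the letters and are not evidence of binding.

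The 3 Hand2 males had 46.5, 48.5 and 34.9 CPM of Sesn1, and the 5 empty-vector males 35.8, 35.5, 38.9, 33.6 and 49.8 CPM. The 4 Hand2 females had 101, 60.1, 89.8 and 65.4 CPM, and the 5 empty-vector females 69.9, 90.1, 77.9, 115 and 80.1 CPM. Every male lay below every female, whichever vector they carried. Males averaged 40.4 ± 6.7 CPM (SD, n = 8) and females 83.2 ± 17.6 CPM (SD, n = 9). With vector taken into account, Sesn1 fell in males by 1.04 ± 0.13 on the log2 scale (SE, 95% interval -1.32 to -0.77), a ratio of 0.486, with an adjusted p of 0.000131 by edgeR's quasi-likelihood test. Its p ranked 48 among the 13965 genes. Of all genes tested, 0.351% were likewise lower in every male than in any female, and 0.494% were higher. None of the 10 was higher in every male. The sexes also differed in age, with 2 of 8 males and 5 of 9 females at 22 months. Males averaged 48.1 ± 2.32 CPM at 22 months (SD, n = 2) and 37.9 ± 5.5 CPM at 23 months (SD, n = 6), and females 82.2 ± 16.6 CPM at 22 months (SD, n = 5) and 84.6 ± 21.2 CPM at 23 months (SD, n = 4). The difference was -1.01 with age in the model (adjusted p = 0.000459) and -1.16 among the 23-month animals alone (adjusted p = 0.00771). Among the 7 animals of 22 months it was -0.77, with an adjusted p of 0.628. Within the empty-vector animals it was -1.16 (adjusted p = 0.00246), and within the Hand2 animals -0.87 (adjusted p = 0.186).

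The slow-fibre markers moved with sex as well, at 183 ± 64.4 CPM in males (SD, n = 8) and 979 ± 446 CPM in females (SD, n = 9) for their sum, with all 7 detected and none at 0. The male with the highest sum, 326 CPM, had 48.5 CPM of Sesn1, and the female with the lowest sum, 282 CPM, had 60.1 CPM. Of the 5 adipocyte markers, all detected in every animal and none at 0, 3 fell in males and 0 rose, with a median log2 difference of -1.22. They were Adipoq (-1.22 ± 0.29, SE, adjusted p = 0.023), Plin1 (-1.29 ± 0.31, SE, adjusted p = 0.024) and Lep (-1.73 ± 0.47, SE, adjusted p = 0.0382). The other markers, Cfd (-0.9 ± 0.3, SE) and Fabp4 (0.13 ± 0.12, SE), did not pass the threshold, and Fabp4 was not lower in males. The summed level of the 5, most of it Fabp4, ranged from 179 to 322 CPM in males and from 173 to 324 CPM in females. The part of slow fibres and of fat in the Sesn1 difference was not tested. Between vectors Sesn1 showed no difference that could be detected. It had a lowest, median and highest level of 34.9, 60.1 and 101 CPM in Hand2 animals and of 33.6, 59.8 and 115 CPM in empty-vector animals, and a log2 change of 0.003 ± 0.13 (SE, 95% interval -0.27 to 0.28).

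Sesn2 (gene 230784, chr4:132492807-132510456, minus strand) encodes the best studied leucine sensor of the family. In the 3 Hand2 males its levels were 6.37, 6.82 and 5.81 CPM, and in the 5 empty-vector males 4.94, 3.87, 5.56, 4.77 and 5.01 CPM. In the 4 Hand2 females they were 4.72, 6.09, 7.27 and 3.6 CPM, and in the 5 empty-vector females 3.96, 5.26, 5.74, 5.31 and 5.86 CPM. All Hand2 males thus lay above all empty-vector males, as did 1.2% of all genes tested, and the female groups overlapped. None of the 10 was lower in all Hand2 males than in any empty-vector male, as 1.42% of all genes were. None separated the vectors in females, where 0.874% of all genes did upwards and 0.773% downwards. The change in males was 0.39 ± 0.19 on the log2 scale (SE, 95% interval -0.01 to 0.79), with an unadjusted p of 0.0561 and an adjusted p of 1 by edgeR's quasi-likelihood test. Over both sexes it was 0.21 ± 0.13 (SE, adjusted p = 0.921). Between males and females the log2 difference was 0.02 ± 0.13 (SE, adjusted p = 0.942).

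Sesn3 (gene 75747, chr9:14276301-14326134, plus strand), a sestrin that FOXO factors are known to induce, was the scarcest of the 10 genes. The 3 Hand2 males had 0.944, 0.928 and 1.47 CPM and the 5 empty-vector males 1.08, 1.1, 1.41, 0.945 and 1.93 CPM. The 4 Hand2 females had 1.09, 1.76, 1.3 and 1.46 CPM and the 5 empty-vector females 1.72, 5.12, 1.45, 1.73 and 2.1 CPM. A single empty-vector female, replicate 2, lay far above the rest, and all groups overlapped. The log2 difference between vectors was -0.54 ± 0.26 (SE, 95% interval -1.09 to 0.005), with an unadjusted p of 0.0518 and an adjusted p of 0.921. Without that female the value was -0.28 (unadjusted p = 0.147). Males differed from females by -0.68 ± 0.25 (SE), with an unadjusted p of 0.0155 and an adjusted p of 0.126, and by -0.39 without that female (adjusted p = 0.201).

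Igf2 (gene 16002, chr7:142650768-142661035, minus strand) encodes a growth factor that is imprinted and strongest before birth. The 3 Hand2 males had 28.5, 25.6 and 27.5 CPM and the 5 empty-vector males 23.5, 26.3, 27.3, 27.9 and 33.1 CPM. The 4 Hand2 females had 31.8, 30.1, 28.4 and 36.8 CPM and the 5 empty-vector females 35.1, 48, 33.6, 32.5 and 37.4 CPM. The sexes overlapped between 28.4 and 33.1 CPM. Males averaged 27.4 ± 2.77 CPM (SD, n = 8) and females 34.9 ± 5.74 CPM (SD, n = 9). Igf2 fell in males by 0.35 ± 0.08 on the log2 scale (SE, 95% interval -0.53 to -0.17), with an adjusted p of 0.0221 by edgeR's quasi-likelihood test. The difference was -0.32 with age in the model (adjusted p = 0.0475), -0.42 among the 23-month animals alone (adjusted p = 0.0106) and -0.2 among the 22-month animals alone (adjusted p = 0.96). It missed the threshold, with a difference of -0.33 and an adjusted p of 0.0503, without empty-vector replicate 7, a male. All 7 slow-fibre markers and 3 of the 5 adipocyte markers also fell in males, while Fabp4 did not. Their part in the Igf2 difference was not tested. The antisense row Igf2as, whose reads cannot be told apart from those of Igf2 unless counting used strand, held 2 to 17 counts per animal. Between vectors the log2 difference was -0.13 ± 0.09 (SE, 95% interval -0.31 to 0.05, adjusted p = 0.921).

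Igf1 (gene 16000, chr10:87859056-87937047, plus strand) encodes the main growth factor of muscle repair and load-induced growth. Its lowest, median and highest levels were 6, 10.2 and 16.2 CPM in Hand2 animals and 6.75, 10.7 and 18.4 CPM in empty-vector animals. They were 6.75, 11.2 and 14.5 CPM in males and 6, 9.36 and 18.4 CPM in females. All these groups overlapped over most of their range. The log2 difference between vectors was -0.03 ± 0.22 (SE, 95% interval -0.49 to 0.43), and that between sexes 0.08 ± 0.21 (SE, 95% interval -0.37 to 0.54). The interval for vectors spanned ratios of 0.711 to 1.35, so changes within that span, in either direction, were not excluded here.

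Igfbp5 (gene 16011, chr1:72858065-72874865, minus strand) encodes a secreted protein that binds these factors and is abundant in muscle. Igfbp5 stood at 938, 1142 and 1096 CPM in the 3 Hand2 males and at 639, 962, 1011, 941 and 607 CPM in the 5 empty-vector males. It stood at 564, 572, 976 and 878 CPM in the 4 Hand2 females and at 983, 462, 615, 661 and 524 CPM in the 5 empty-vector females. Groups overlapped in both sexes. The log2 difference between vectors was 0.27 ± 0.17 (SE, 95% interval -0.08 to 0.62, adjusted p = 0.921). Males differed from females by 0.42 ± 0.16 (SE), with an unadjusted p of 0.0223 and an adjusted p of 0.15. Without empty-vector replicate 1, the female with the highest level, that difference was 0.53 and passed the threshold (adjusted p = 0.0368). In 29 of the 30 alternatives it was not called, with values down to 0.12.

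The receptors varied little between animals. Igf1r (gene 16001, chr7:67952257-68233667, plus strand) encodes the receptor of Igf1 and Igf2, and its lowest, median and highest levels were 22.7, 29.5 and 37.6 CPM in Hand2 animals and 27.4, 32.7 and 41.1 CPM in empty-vector animals. Insr (gene 16337, chr8:3150922-3279617, minus strand) encodes the insulin receptor, at 79.9, 96.7 and 106 CPM in Hand2 animals and 91.8, 98.1 and 118 CPM in empty-vector animals. The vector groups overlapped in part for both genes, and the lowest level lay in a Hand2 animal and the highest in an empty-vector animal. The log2 difference between vectors was -0.08 ± 0.09 (SE, 95% interval -0.28 to 0.12) for Igf1r and -0.06 ± 0.06 (SE, 95% interval -0.17 to 0.06) for Insr. Between sexes it was -0.14 ± 0.09 (SE, adjusted p = 0.405) for Igf1r and -0.09 ± 0.06 (SE, adjusted p = 0.361) for Insr. These intervals were among the narrowest of the 10.

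Irs1 (gene 16367, chr1:82233105-82291439, minus strand) encodes the main substrate of the insulin and IGF receptors in muscle. Its level varied most within females, with a coefficient of variation of 57.9% in Hand2 and 51.3% in empty-vector females. In males that value was 37% with Hand2 and 22.3% with empty vector. The 3 Hand2 males had 34.3, 70.2 and 74.4 CPM and the 5 empty-vector males 107, 96.7, 68.3, 62.8 and 84 CPM. The 4 Hand2 females had 57.3, 75, 21.2 and 115 CPM and the 5 empty-vector females 106, 138, 132, 58.3 and 28.7 CPM. The log2 difference between vectors was -0.48 ± 0.34 (SE, 95% interval -1.21 to 0.25, adjusted p = 0.921). It was -1.27 among the 22-month animals alone (adjusted p = 0.342) and 0.12 among the 23-month animals alone (adjusted p = 0.954). Between males and females it was -0.15 ± 0.34 (SE, adjusted p = 0.832), and -0.29 to -0.00943 without single animals.

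Irs2 (gene 384783, chr8:10986964-11008430, minus strand) encodes the other main substrate, whose gene is known to be induced by FOXO factors in fasting. The 3 Hand2 males had 13.3, 15 and 10.7 CPM and the 5 empty-vector males 12, 14.7, 11.4, 11.5 and 15 CPM. The 4 Hand2 females had 12.5, 12.6, 13.3 and 12.9 CPM and the 5 empty-vector females 9.52, 25.7, 62.9, 32.1 and 12.4 CPM. Of all 17 animals, empty-vector females 2, 3 and 4 stood above the rest, so the spread lay within that group. Hand2 animals averaged 12.9 ± 1.28 CPM (SD, n = 7) and empty-vector animals 20.7 ± 16.5 CPM (SD, n = 10). In females the log2 difference between vectors was -1.15 ± 0.41 (SE, 95% interval -2.03 to -0.28), with an unadjusted p of 0.0132 and an adjusted p of 0.802 by edgeR's quasi-likelihood test. Without empty-vector replicate 3 it was -0.63. Without replicates 3, 4 and 5 together, which are the 23-month empty-vector females, it was -0.45. Females averaged 14.7 ± 6.31 CPM at 22 months (SD, n = 5) and 30.1 ± 23.7 CPM at 23 months (SD, n = 4). Ages were uneven between vectors, with 3 of 4 Hand2 females and 2 of 5 empty-vector females at 22 months. Over both sexes the log2 difference between vectors was -0.62 ± 0.33 (SE, adjusted p = 0.921), and -0.32 without replicate 3. The effect in males minus that in females was 1.16 ± 0.6 (SE, 95% interval -0.11 to 2.44), with an unadjusted p of 0.0704 and an adjusted p of 1, and was 0.64 without replicate 3. Males differed from females by -0.67 ± 0.32 (SE, adjusted p = 0.241), and by -0.34 without replicate 3. A row on the opposite strand at this locus, 9530052E02Rik, held 4.06 to 17 counts per animal.

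Between Hand2 and empty-vector animals, 0 of the 10 genes passed an adjusted p of 0.05 by edgeR's quasi-likelihood test, against 0% of the 13965 genes tested. Hand2 itself was thus not called in this fit either, although its levels did not overlap. At an unadjusted p of 0.05 the count was 0 of 10, where 5.05% of all genes passed, and DESeq2 and limma-voom with quality weights called 0 of the 10. In none of the 10 did the 7 Hand2 animals separate from the 10 empty-vector animals, as 0.0143% of all genes did upwards and 0.00716% downwards. Of the 10 log2 differences 3 were above 0 and 7 below, with a median of -0.07, beside a median of -0.004 and 48.3% above 0 over all genes tested. Within females 0 of 10 passed the adjusted threshold, and 2, Irs2 and Sesn3, had an unadjusted p under 0.05, where 5.9% of all genes did. Within males 0 of 10 passed, also at an unadjusted p of 0.05, where 2.84% of all genes did. The test of the difference between the sexes gave 0 of 10 as well, where 3.39% of all genes had an unadjusted p under 0.05.

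Between males and females, 2 of the 10 genes passed an adjusted p of 0.05, Sesn1 and Igf2, against 5.63% of all genes tested. Both were lower in males, as were 2.72% of all genes, and 0 of 10 were higher, as were 2.91%, with 406 genes higher and 380 lower in all. With upper-quartile scaling the split over all genes was 514 higher and 270 lower. At an unadjusted p of 0.05, 4 of 10 passed, the other two being Sesn3 and Igfbp5, where 21.6% of all genes did. The median log2 difference of the 10 was -0.15, with 3 above 0 and 7 below, beside a median over all genes of 0.0006.

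**Figure D2:**
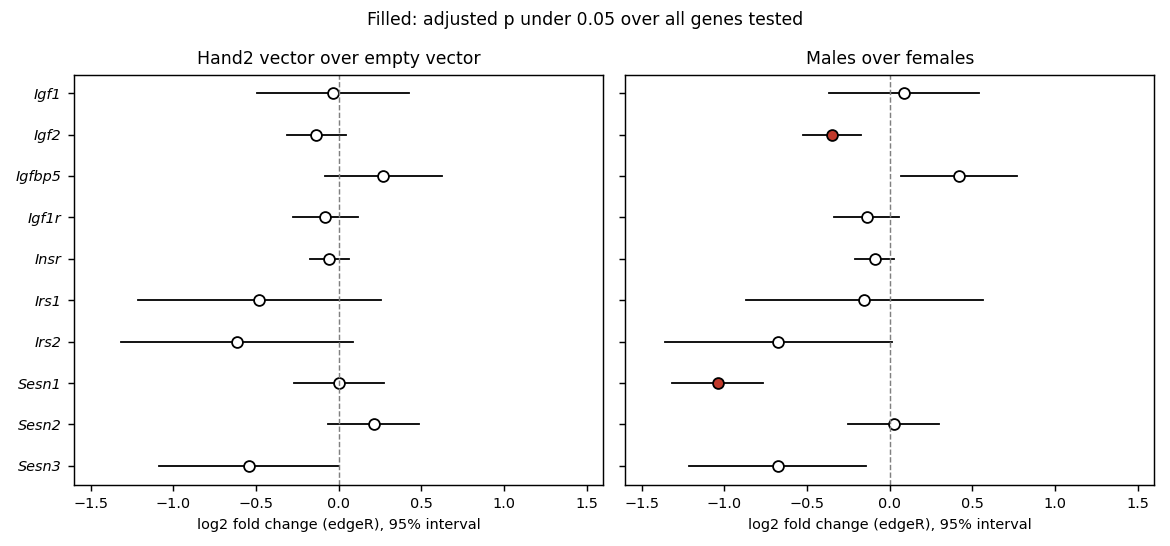
Log2 fold change with its 95% interval for the 10 genes, Hand2 over empty vector in the left panel and males over females in the right, with filled points for an adjusted p under 0.05. All 10 intervals include 0 on the left, while Sesn1 at -1.04 and Igf2 at -0.35 are the filled points on the right.

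Other genes of the network were taken from lists of 109 genes besides the 10, of which 100 had enough reads to be tested. Between vectors 0 of these 100 passed the adjusted threshold, and 3 had an unadjusted p under 0.05. These were Stc2 (log2 change 0.54 ± 0.24, SE, p = 0.038), Eif4ebp2 (0.17 ± 0.07, SE, p = 0.031) and Inppl1 (0.1 ± 0.04, SE, p = 0.0456). The median log2 change of the 100 was -0.02. Between sexes 3 of the 100 rose and 5 fell in males, by edgeR's quasi-likelihood test, beside 2.91% and 2.72% of all genes tested, and the median of the 100 was -0.05. The counts of single lists below stand beside the same shares, and rest on few genes each. Slow-fibre markers and 3 of the 5 adipocyte markers also fell in males, as given for Sesn1, and their part in these differences was not tested.

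Among ligands, binding proteins and their proteases, 2 of 12 tested genes fell in males and 0 rose, Igf2 and Stc2. Stc2 encodes stanniocalcin 2, an inhibitor of the protease that frees IGF from its binding proteins, and averaged 3.58 ± 0.782 CPM in males (SD, n = 8) and 6.89 ± 3.91 CPM in females (SD, n = 9), with a log2 difference of -0.86 ± 0.24 (SE, adjusted p = 0.0468). That call was lost on leaving out any one of 12 of the 17 animals, at -0.92 to -0.69 (adjusted p up to 0.0938). Pappa, which encodes that protease, had a log2 difference of -0.92 ± 0.32 (SE) and missed the threshold with an adjusted p of 0.102. It was scarce, with 226 estimated counts summed over all 17 animals. H19, the imprinted noncoding RNA next to Igf2, was the single gene tested for that neighbourhood. It averaged 227 ± 113 CPM in males (SD, n = 8) and 583 ± 276 CPM in females (SD, n = 9), and fell in males by 1.36 ± 0.29 on the log2 scale (SE, adjusted p = 0.014).

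Of the 3 receptors tested, none passed the test between sexes. Among adaptors and inhibitors at the receptor, 1 of 16 fell and 0 rose. This was Grb10, an imprinted gene whose product inhibits the insulin and IGF receptors, at 47.8 ± 6.46 CPM in males (SD, n = 8) and 60.6 ± 4.93 CPM in females (SD, n = 9), with a log2 difference of -0.35 ± 0.07 (SE, adjusted p = 0.00968). In the kinase step, 1 of 16 genes rose, Pik3cd, a catalytic subunit of phosphoinositide 3-kinase best known from leukocytes (log2 difference 0.38 ± 0.1, SE, adjusted p = 0.029). In the same list 1 fell, Akt2, the AKT form of insulin action on glucose, at 379 ± 29.6 CPM in males (SD, n = 8) and 428 ± 26.2 CPM in females (SD, n = 9), with a log2 difference of -0.18 ± 0.05 (SE, adjusted p = 0.0403). Pik3cd lost its call without any one of 4 males (Hand2 6 and 7, empty vector 7 and 8), at 0.34 to 0.39 (adjusted p up to 0.0674), and Akt2 without any one of 10 of the 17 animals, at -0.18 to -0.15 (adjusted p up to 0.0782). Grb10 kept its call without any single animal.

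Of the 24 sestrin, GATOR, RAG and KICSTOR genes tested, Sesn1 was the single one to pass between sexes, and 17 of the 24 log2 differences were below 0, with a median of -0.06, beside 49.9% and 0.0006 over all genes. Among 20 genes of the mTOR complexes, TSC and their outputs, 1 rose and 1 fell. Eif4ebp2, a repressor of cap-dependent translation that mTOR complex 1 inactivates, rose in males by 0.25 ± 0.07 on the log2 scale (SE, adjusted p = 0.0466). Ddit4, a stress-induced inhibitor of mTOR complex 1 also known as REDD1, ranged from 8.48 to 39.1 CPM with a median of 18.9 in males and from 10.5 to 522 CPM with a median of 64.2 in females. It fell in males by 2.95 ± 0.75 on the log2 scale (SE, adjusted p = 0.0354), and without empty-vector replicates 3, 4 and 5 the difference was -1.37 (adjusted p = 0.415). Leaving out any one of 10 of the 17 animals ended the call of Ddit4, at -2.98 to -2.56 (adjusted p up to 0.0816), and any one of 13 that of Eif4ebp2, at 0.21 to 0.26 (adjusted p up to 0.108).

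Of the 12 FOXO genes and genes of insulin action on glucose, 0 passed, 3 had an unadjusted p under 0.05, a share near the 21.6% of all genes, and 11 of the 12 log2 differences were below 0, beside 49.9% of all genes. Foxo1, a main driver of atrophy genes, averaged 49.1 ± 23.7 CPM in males (SD, n = 8) and 125 ± 84.7 CPM in females (SD, n = 9), with an adjusted p of 0.0872. Foxo3, its relative, had 4.12 ± 0.8 CPM in males and 7.01 ± 3.5 CPM in females (SD, n = 8 and 9), with an adjusted p of 0.0776. In the growth hormone axis 1 of 6 genes rose, Cish, an inhibitor of the growth hormone receptor's signal. Cish averaged 23.2 ± 13.6 CPM in males (SD, n = 8) and 6.57 ± 4.34 CPM in females (SD, n = 9), with a log2 difference of 1.87 ± 0.44 (SE, adjusted p = 0.0254), and missed the threshold without empty-vector replicate 8 or Hand2 replicate 3, at 1.72 to 1.77 (adjusted p up to 0.0568).

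**Figure D3:**
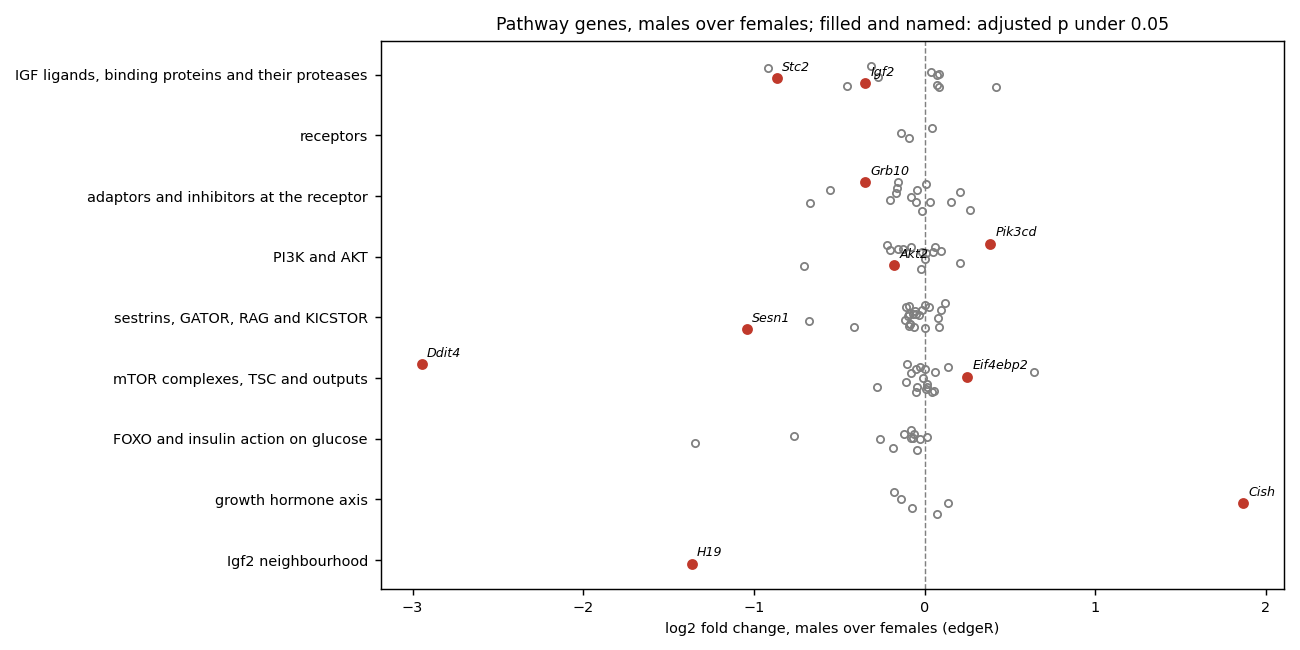
Log2 fold change, males over females, of each tested gene of the network, 1 row per list (vertical scatter only separates points), filled and named where the adjusted p was under 0.05. Sesn1 at -1.04, H19 at -1.36 and Ddit4 at -2.95 lie on the side lower in males, and Cish at 1.87 on the side higher in males.

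For each of the 10 genes, the other genes whose log2 CPM followed it most closely over the 17 animals were found by Pearson's r among all genes tested. These values are a description with no test, since the genes were picked for a high r and the animals share sex and vector groups. Sesn1 went with Tcp1, a chaperonin subunit (r = 0.92), and with Meg3, an imprinted noncoding RNA (r = 0.898). With the means of the sexes removed, r was 0.741 for Tcp1 and 0.296 for Meg3, whose own log2 difference between males and females was -1.48 ± 0.1 (SE, adjusted p = 1.17e-08). Irs2 went with Slc20a1, a phosphate transporter (r = 0.931), and with Btg2, an early-response gene that restrains proliferation (r = 0.907). Spearman's rho was lower for both, at 0.684 and 0.52. Empty-vector females 3 and 4 had 64.7 and 55.7 CPM of Slc20a1 and 402 and 210 CPM of Btg2, while the 7 Hand2 animals had 19.9 to 24.8 CPM and 26.9 to 56.9 CPM.

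**Figure D4:**
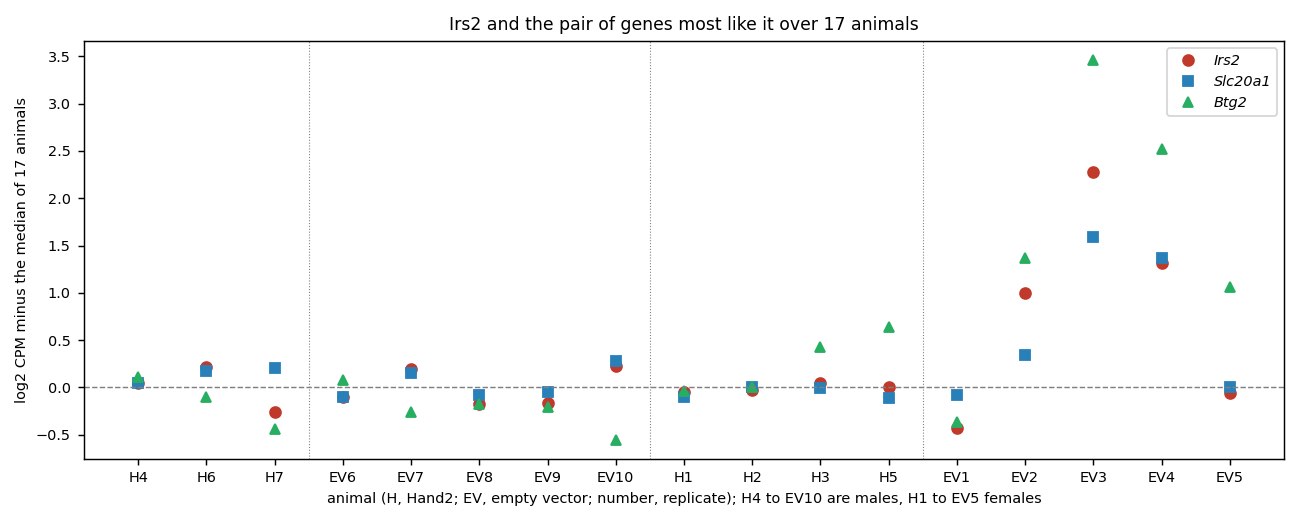
Log2 CPM of Irs2, Slc20a1 and Btg2 in each animal minus the gene's median over the 17 animals, males in the left part and females in the right part, Hand2 (H) left of empty vector (EV) in each. All of them are highest in EV3: Irs2 reaches 62.9, Slc20a1 64.7 and Btg2 402 CPM in the same empty-vector female, replicate 3.

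Sesn3 went with Nfkb2, a subunit of the noncanonical NF-kappaB pathway (r = 0.927), and with Myl12a, a regulatory light chain of nonmuscle myosin (r = 0.91). Igf2 went with Myl12a too (r = 0.923) and with Rplp0, a ribosomal protein (r = 0.913). Empty-vector female 2 had the highest level of both Sesn3 and Igf2. Igf1 went with Dap (r = 0.887) and Slc6a2, the noradrenaline transporter of sympathetic nerve endings (r = 0.876), and with the means of the sexes removed r was 0.884 and 0.873. Irs1 went with Siah2, a ubiquitin ligase (r = 0.89), and Zfp462 (r = 0.867). Insr went with Tmem120a (r = 0.903) and Taf12 (r = 0.865), and Igfbp5 with Phkg1, the muscle catalytic subunit of phosphorylase kinase (r = 0.85), and Lrrc20 (r = 0.849). Igf1r went with Impact (r = 0.777), and Sesn2 with LOC100861615 (r = 0.761) and Zscan12 (r = 0.758), less closely than the pairs above.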

How the data were processed

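EDL muscle RNA was made into libraries with Illumina TruSeq v2, per the labels' protocols. The build was mm10, per the submitters' processing notes. A RefSeq-based re-alignment is named per the file headers. The sources used here do not name an aligner, a counter or the use of strand. The authors deposited estimated counts per gene and sample, unscaled for depth; 25.5% to 29.3% of a sample's values above 0 were whole within 0.001. Their deposited log2 values, normalized by the authors, served in 1 alternative fit that was added after seeing the data.

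Groups came from the vector and sex in the labels. Replicates were numbered by accession, so equal numbers link no animals. The labels say little of the animals' origin, and p-values measure the spread between these samples. No library pair agreed within sampling noise (closest of 136 pairs: mean chi-square 6.88). After rounding, filterByExpr and TMM scaling, edgeR 4.0.16 under R 4.3.3 fitted robust quasi-likelihood models, with vector and sex as terms or with 4 groups of vector and sex. Benjamini-Hochberg adjustment covered all 13965 genes, with 0.05 as threshold. Each SE is the log2 fold change divided by the square root of its F. Floors are a fixed 3 counts over the library total and hold no error term. Intervals cover counting error and the spread of these animals. Exon lengths came from GENCODE M21. Values of r rest on log2 CPM (prior count 2). Scripts were tested on simulated data. Alternatives were DESeq2 1.42.0, limma 3.58.1, other scalings and filters, an age term, single ages or vectors, and leaving out animals.

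The 10 genes and the lists were chosen with earlier results of these data known. Named were the 10, up to 4 others per list and comparison by smallest p, of which the text gives part, and the 2 likest genes of each of the 10, of which 1 is not reported here.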

Additional observations from a re-analysis of the deposited data

Results flagged for a closer look

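A sample far from the others was sought for each gene in groups of 4 to 10 animals, and 4 of these 50 tests flagged one. The groups share animals, so the tests are not independent. Chance alone flags about 1 in 20 where values are normally distributed. Irs2 in empty-vector animals reached 62.86 CPM in replicate 3, a female, and the next highest value was 32.1 CPM. Sesn3 reached 5.116 CPM in empty-vector replicate 2, a female, both among all empty-vector animals and among the empty-vector females, where the next highest value was 2.1 CPM. Insr reached 118.1 CPM in the same female, where the next highest empty-vector animal had 106 CPM. The causes were not tested.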

How the results depend on the processing

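No alternative called any of the 10 genes between vectors, in either sex or in the test of the difference between sexes. Over all genes DESeq2 called 1 between vectors, 7 in females and 1 in males. Leaving out 1 animal gave 0 to 1 called between vectors, 0 to 1 in females and 0 to 2 in males. Between sexes the count of called genes was 24 in the 22-month animals alone, 413 in the 23-month animals alone, 1276 with DESeq2, 118 in empty-vector animals alone, 68 in Hand2 animals alone and 291 without empty-vector replicates 3, 4 and 5, where fewer animals were used in all but DESeq2. Without single animals it was 476 to 952. The count of the 10 genes called was 0 at 22 months alone, 1 in empty-vector animals alone, 0 in Hand2 animals alone, 1 without empty-vector replicates 3, 4 and 5, and 1 to 3 without single animals. Sesn1 kept its call between sexes in 28 of 30 alternatives and lost it at 22 months and in Hand2 animals alone, with values of -1.16 to -0.77 over the 30. Igf2 kept it in 25 of 30. Igf2 lost it at 22 months (-0.2, adjusted p = 0.96), in empty-vector (-0.44, 0.126) or Hand2 animals alone (-0.22, 0.427), without empty-vector replicates 3, 4 and 5 (-0.4, 0.0516) and without replicate 7.

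Of the log2 differences that changed sign, none was called. Between vectors at 23 months alone they were 0.38 for Igf1, 0.0467 for Igf2, 0.12 for Irs1 and -0.0223 for Sesn1, and at 22 months alone 0.16 for Igf1r. With an age term they were 0.000942 for Igf1 and -0.032 for Sesn1, which was -0.00545 on the deposited log2 values. Without single animals they spanned -0.18 to 0.11 for Igf1 and -0.0524 to 0.0738 for Sesn1. Between sexes they were -0.0133 for Igf1 and 0.0385 for Igf1r at 22 months alone, -0.0433 for Igf1 and -0.12 for Sesn2 in empty-vector animals alone, 0.0219 for Irs2 in Hand2 animals alone and 0.0173 for Irs1 on the deposited log2 values. Without single animals Sesn2 spanned -0.0428 to 0.0765. The calls between sexes of Grb10 and H19 were lost in 3 of 30 alternatives each, of Cish in 9, Pik3cd in 10, Akt2 in 18, Ddit4 in 19, Eif4ebp2 in 20 and Stc2 in 22. The causes were not tested. No paired analysis was possible because the numbers pair no animals. Sesn3 rested on 20 to 110 estimated counts per animal, above the floor of 3.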
